A study of Mus musculus with 6 samples.

Results

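The 39 genes described here drive or restrain the cell division cycle, and they were taken by symbol from a table of 16266 genes. They comprise 11 genes of the G1 phase and the E2F switch, 3 inhibitors of cyclin-dependent kinases, 12 genes of DNA replication and 13 genes of G2 and mitosis. All 39 passed the filter on low counts, which kept 12219 genes for testing. The genes were grouped by their known function.

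The libraries came from macrophages that had been cultured from mouse bone marrow. The knockout (KO) group held 3 libraries from cells lacking Capns1, the small regulatory subunit of the calpain proteases, and the wild-type (WT) group held 3. Both groups had received lipopolysaccharide (LPS), a bacterial wall component sensed through Toll-like receptor 4, for 24 h, and no libraries without LPS were analysed here. The study's title places the deletion in myeloid cells, while the labels give neither its driver nor the strain, sex and age of the mice. The genotype field carries a different Capns number in each KO library, while the study's design text names Capns1 for all of them. The labels do not say whether replicates came from separate animals or cultures, so p-values measure only the spread between these libraries, which may be technical.

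In the cell cycle, D-type cyclins bind CDK4 or CDK6 in G1 and phosphorylate the retinoblastoma protein, which releases E2F transcription factors. E2F factors switch on the genes of replication, and later FOXM1 and related complexes switch on the genes of mitosis. The inhibitors p21, p27 and p18 hold the kinases in check. Macrophages grown from marrow divide in response to the growth factor CSF1, which induces cyclin D1, and LPS is known to halt that division.

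Each library held 32631163 to 40913819 counts. The FPKM of Capns1 (fragments per kilobase of gene scaled to the library's total, a level per length) was 4.36, 4.56 and 4.19 in KO libraries 1 to 3, against 225, 219 and 239 in WT libraries 1 to 3, a log2 fold change of -5.73 ± 0.12 SE in edgeR (adjusted p = 1.77e-10). Every KO library thus carried the loss. All 10 macrophage markers were present, with a summed FPKM of 26088 to 30274 in KO and 26778 to 34228 in WT libraries, most of it from Lyz2. Of the 10, 9 had negative log2 fold changes and 1, Cd14, was called lower in KO (-0.34, adjusted p = 0.0304). All KO libraries lay below WT for Csf1r, the receptor of CSF1, which was not called (-0.35, adjusted p = 0.0600). On the second principal component of all tested genes, which held 15.9% of the variance, KO library 2 and WT library 3 stood apart at -25.5 and 23.2, against 10.4 and 12.6 for the other KO and -12.4 and -8.21 for the other WT libraries. Results are therefore given with and without these 2 libraries where they change. Once both are left out, the remaining groups differ on this component too, so it then cannot be told apart from genotype.

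Of the 39 genes, edgeR's quasi-likelihood test called 2 higher and 1 lower in KO macrophages at an adjusted p under 0.05, and 36 were not called. Across all 12219 tested genes, 8.44% were called higher and 6.21% lower, 14.6% in all, against 7.69% of the 39. Cyclin D1 (Ccnd1) and the helicase subunit Mcm2 rose, and the inhibitor p27 (Cdkn1b) fell. None of the 13 mitotic genes was called, and 0 of them had an unadjusted p under 0.05, which 28.2% of all tested genes had. In bulk libraries such as these, fewer cells of a type and less RNA per cell cannot be told apart.

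**Figure D1:**
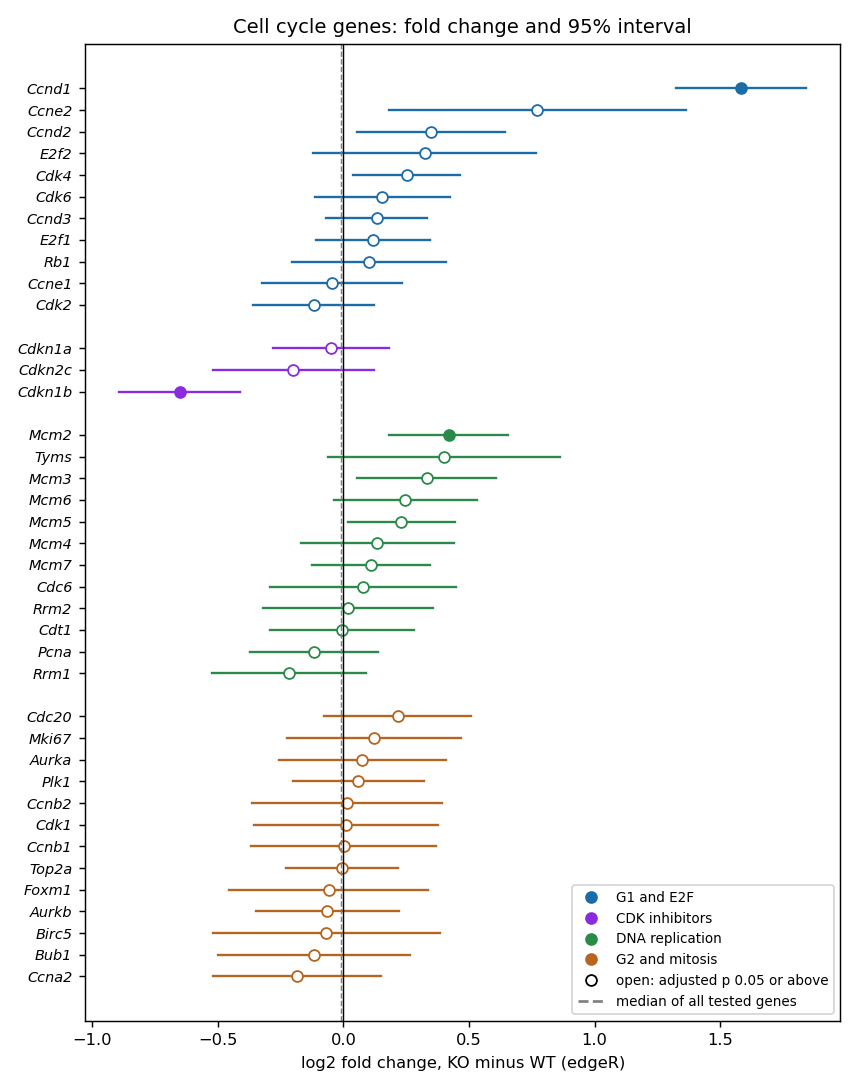
Log2 fold change of the 39 genes (x axis, KO minus WT, from edgeR) by role, with 95% confidence intervals as bars, filled points for an adjusted p under 0.05 and the dashed line at the median of all tested genes. Ccnd1 (1.58), Cdkn1b (-0.65) and Mcm2 (0.42) carry the filled points, and the 13 mitotic genes lie between -0.19 and 0.22.

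The roles are described by their medians, without a test between them. The median log2 fold change was 0.15 over the 11 G1 and E2F genes, -0.20 over the 3 inhibitors, 0.12 over the 12 replication genes and 0.00035 over the 13 mitotic genes, beside -0.011 over all tested genes. The G1 and E2F median was 0.27 without KO library 2 and WT library 3, and 0.23 without WT library 3 alone. The inhibitor median was -0.31 without WT library 1, -0.28 without KO library 3 and -0.080 without WT library 2. Positive values were held by 9 of 11 G1 and E2F genes, 0 of 3 inhibitors, 9 of 12 replication genes and 7 of 13 mitotic genes, beside 48.3% of all tested genes. KO and WT ranges of FPKM were separate for 9 of the 39 genes, which is 23.1%, against 33.7% of all tested genes. For 8 of these 9 all KO libraries lay above WT (18.2% of all tested genes do), namely Ccnd1, Ccnd2, Ccnd3, Ccne2, Cdk4, Mcm2, Mcm3 and Mcm5, and for Cdkn1b all KO libraries lay below (15.5% of all tested genes do). For each of these genes the two-sided exact permutation p was 0.1, the floor of a design of 3 against 3. Any gene with separate ranges must reach that floor, so this p adds nothing to the separation. No mitotic gene was among the 9.

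Stretches of promoter from 4 genes were searched for motifs that regulators of cell cycle genes are known to read. They come from RefSeq on GRCm38.p6, 250 bases before the start of the gene, 5' to 3' on the gene's own strand. Capitals mark letters that match an E2F motif (TTTGGCGC, TTTCCCGC, TTTGCCGC or TTTCGCGC), a CHR motif (TTTGAA or TTCGAA, read by MuvB complexes in mitotic genes) or the CCAAT box, each on either strand. Cdkn1b (chr6:134920151-134920400, plus strand) and Mcm2 (chr6:88898781-88899030, minus strand) are shown because they were called. Mcm6 (chr1:128359706-128359955, minus strand), another helicase subunit, and the mitotic kinase Cdk1 (chr10:69352913-69353162, minus strand) are shown as contrasts and were chosen after their values were seen. Ccnd1, the remaining called gene, had no promoter in the source used and is named only.
Cdkn1b: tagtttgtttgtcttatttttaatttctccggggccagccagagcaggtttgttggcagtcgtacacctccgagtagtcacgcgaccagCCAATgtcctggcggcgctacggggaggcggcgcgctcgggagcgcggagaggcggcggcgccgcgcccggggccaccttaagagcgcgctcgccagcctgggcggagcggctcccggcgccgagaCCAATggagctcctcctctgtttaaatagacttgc
Mcm2: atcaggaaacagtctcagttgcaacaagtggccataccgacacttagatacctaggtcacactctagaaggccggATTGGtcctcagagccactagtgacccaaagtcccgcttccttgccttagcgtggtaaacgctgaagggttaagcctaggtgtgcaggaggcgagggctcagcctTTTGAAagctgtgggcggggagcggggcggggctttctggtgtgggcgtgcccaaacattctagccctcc
Mcm6: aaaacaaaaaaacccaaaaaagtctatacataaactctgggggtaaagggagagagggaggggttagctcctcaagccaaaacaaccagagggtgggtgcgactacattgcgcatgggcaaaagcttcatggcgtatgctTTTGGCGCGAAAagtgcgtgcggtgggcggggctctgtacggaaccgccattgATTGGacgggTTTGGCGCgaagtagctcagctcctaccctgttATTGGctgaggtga
Cdk1: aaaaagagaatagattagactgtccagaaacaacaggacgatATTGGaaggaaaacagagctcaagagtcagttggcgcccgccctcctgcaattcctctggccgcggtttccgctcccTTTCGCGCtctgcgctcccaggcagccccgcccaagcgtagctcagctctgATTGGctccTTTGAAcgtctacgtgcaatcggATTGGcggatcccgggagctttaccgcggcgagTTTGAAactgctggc

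Cdkn1b held 2 CCAAT boxes, 161 and 35 bases before its start, and no E2F or CHR match. Mcm2 held 1 CHR match 70 bases and 1 reversed CCAAT box 175 bases before its start, and no E2F match. Mcm6 held E2F matches 110, 106 and 47 bases before its start, the first pair overlapping on opposite strands, and reversed CCAAT boxes at 57 and 14. Cdk1 held 1 E2F match at 131, CHR matches at 71 and 15 and reversed CCAAT boxes at 208, 80 and 48. A match describes letters and not binding.

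A promoter was found for 31 of the 39 genes, and Ccnd1 was not among the 31. An E2F match lay in 4 of 11 replication promoters and 1 of 10 mitotic promoters, beside 1.91% of the first promoters of 27025 genes. A CHR match lay in 2 of 11 replication and 5 of 10 mitotic promoters, beside 17.4% of all first promoters. The CCAAT box lay in 8 of 11 replication, 9 of 10 mitotic, 2 of 7 G1 and E2F and 1 of 3 inhibitor promoters, beside 34.5% of all first promoters. The cyclic AMP response element (TGACGTCA) was found in 1 of the 31, Mcm5, beside 1.62%, and the AP-1 site (TGAGTCA or TGACTCA) in 0 of the 31, beside 4.43%.

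Among the cyclins of G1, cyclin D1 alone was called. Ccnd1, which lies on chromosome 7 at 144929931 to 144939831 (GRCm38) and encodes the D cyclin induced by growth factors, had an FPKM of 32.2, 29.4 and 27.3 in KO libraries 1 to 3, against 8.44, 10.4 and 10.3 in WT libraries 1 to 3. The lowest KO library stood well above the highest WT library. The means were 29.6 ± 2.47 in KO and 9.74 ± 1.13 in WT (SD, n = 3 each). The log2 fold change was 1.58 ± 0.12 SE (2.99-fold, 95% interval 1.32 to 1.84, edgeR adjusted p = 7.82e-06). It was 1.62 without KO library 2 and WT library 3, and Ccnd1 was called under all 19 alternatives, at 1.49 to 1.66.

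Ccnd1 shares 23.4% of its exon bases with LTO1 on the opposite strand, and the labels do not say whether counting used strand. LTO1 itself stood at a log2 fold change of -0.037 (edgeR adjusted p = 0.874). Markers of fibroblasts and stroma moved with Ccnd1, a gene such cells also express. Of 10 listed and 9 tested, 5 were called higher in KO (Col1a1, Col1a2, Pdgfra, Dcn and Sparc) and 0 lower, at a median log2 fold change of 0.91. That is 55.6% of the tested markers, beside 14.6% of all tested genes. The summed FPKM of the listed markers was 105 to 118 in KO and 49.1 to 54.2 in WT libraries. Thy1 was below the filter, at a mean of 0.10 FPKM over the libraries. The part of such cells in the Ccnd1 difference was not tested.

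The other D cyclins were not called. Ccnd3, the most abundant D cyclin here, had an FPKM of 88.1, 79.2 and 89.4 in KO libraries 1 to 3, against 76.7, 74.8 and 78.9 in WT libraries 1 to 3. KO library 2 lay only just above the highest WT library, and the log2 fold change was 0.13 (edgeR adjusted p = 0.395). Ccnd3 shares 4.11% of its exon bases with Bysl on the opposite strand, which was called higher (0.50). Ccnd2, at 1.80, 1.42 and 1.55 FPKM in KO and 1.32, 1.21 and 1.16 FPKM in WT libraries, had a log2 fold change of 0.35 (adjusted p = 0.110). Both thus lay higher in every KO library without passing the test.

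The make-up of the D cyclin transcripts differed accordingly. Summed over Ccnd1, Ccnd2 and Ccnd3, the FPKM was 122, 110 and 118 in KO libraries, against 86.5, 86.5 and 90.4 in WT libraries. Ccnd1 made up 26.4, 26.7 and 23.1% of that sum in KO libraries, against 9.76, 12.1 and 11.4% in WT libraries. Ccnd3 remained the largest D cyclin in every library, at 72.0 to 75.6% in KO and 86.5 to 88.7% in WT.

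**Figure D2:**
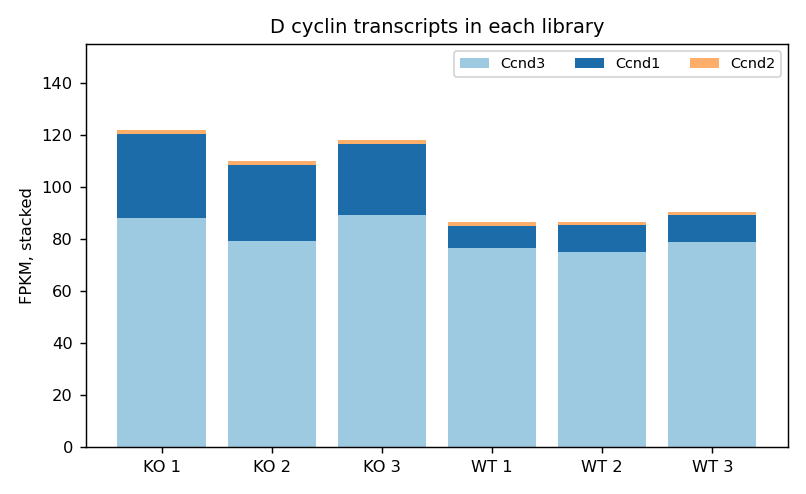
Stacked FPKM (y axis) of Ccnd3, Ccnd1 and Ccnd2 in each library, KO to the left of WT. The Ccnd1 segment is 27.3 to 32.2 FPKM in KO and 8.44 to 10.4 FPKM in WT libraries, on top of a Ccnd3 segment that is the largest throughout.

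Cdk4, the kinase partner of the D cyclins and the most abundant of the 39 transcripts per length by the mean over the 6 libraries (Pcna was higher by the WT mean), had an FPKM of 94.0, 102 and 98.3 in KO libraries 1 to 3, against 81.1, 85.6 and 76.7 in WT libraries 1 to 3. All KO libraries were above all WT libraries. The log2 fold change was 0.25 ± 0.10 SE (95% interval 0.039 to 0.46, edgeR adjusted p = 0.112), so Cdk4 did not pass. It shares 19.7% of its exon bases with Tspan31 on the opposite strand, which had a log2 fold change of 0.030. Cdk4 made up 98.4 ± 0.15% of summed Cdk4 and Cdk6 FPKM in KO and 98.3 ± 0.27% in WT (SD, n = 3 each), and Cdk6 had a log2 fold change of 0.15 (adjusted p = 0.458).

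Further along G1, neither the E cyclins, nor Cdk2, nor the retinoblastoma and E2F genes were called. Cyclin E2 (Ccne2), an activator of Cdk2 at S phase entry, had an FPKM of 0.86, 1.03 and 1.17 in KO libraries, against 0.80, 0.51 and 0.46 in WT libraries. Its log2 fold change of 0.77 ± 0.27 SE (95% interval 0.18 to 1.36) came with an edgeR adjusted p of 0.0793. WT library 1 lay just under the lowest KO library, and without it the adjusted p was 0.0396. Ccne2 shares 17.4% of its exon bases with Ints8 on the opposite strand, which had a log2 fold change of 0.039, and it was the least abundant of the 39 genes. Cyclin E1 (Ccne1, -0.047), Cdk2 (-0.12), the retinoblastoma gene Rb1 (0.10) and the activating factors E2f1 (0.12) and E2f2 (0.32) had adjusted p-values of 0.335 to 0.860. Rb1 shares 8.11 and 6.78% of its exon bases with Rcbtb2 and Lpar6 on the opposite strand, which were called lower (-0.74 and -0.79). E2f2 passed without KO library 2 and WT library 3 (log2 fold change 0.62, adjusted p = 0.0333).

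Of the 3 inhibitors, p27 alone was called. Cdkn1b, on chromosome 6 at 134920401 to 134925525, encodes p27, which binds and blocks cyclin and CDK complexes in resting cells. Its FPKM was 9.48, 9.32 and 9.21 in KO libraries 1 to 3, against 13.4, 16.1 and 13.9 in WT libraries 1 to 3. The KO libraries lay close together and all below the lowest WT library. The means were 9.34 ± 0.134 in KO and 14.4 ± 1.41 in WT (SD, n = 3 each), and the log2 fold change was -0.65 ± 0.11 SE (0.637-fold, 95% interval -0.89 to -0.41, edgeR adjusted p = 0.00242). It was -0.70 without KO library 2 and WT library 3, and Cdkn1b was called under all 19 alternatives.

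The p53 target Cdkn1a, which encodes p21, was the most abundant inhibitor. Its FPKM was 62.5, 72.5 and 65.2 in KO libraries 1 to 3, against 69.2, 64.2 and 70.7 in WT libraries 1 to 3. The groups overlapped, at a log2 fold change of -0.049 (95% interval -0.28 to 0.18, edgeR adjusted p = 0.816). Cdkn2c, which encodes the CDK4 and CDK6 inhibitor p18, had an FPKM of 7.74, 7.22 and 9.17 in KO libraries, against 7.61, 10.9 and 8.75 in WT libraries. These overlapped too, at a log2 fold change of -0.20 (95% interval -0.52 to 0.12, adjusted p = 0.413). Since Ccnd1 rose and Cdkn1b fell, the ratio of their FPKM was 3.40, 3.15 and 2.96 in KO libraries, against 0.629, 0.650 and 0.746 in WT libraries.

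**Figure D3:**
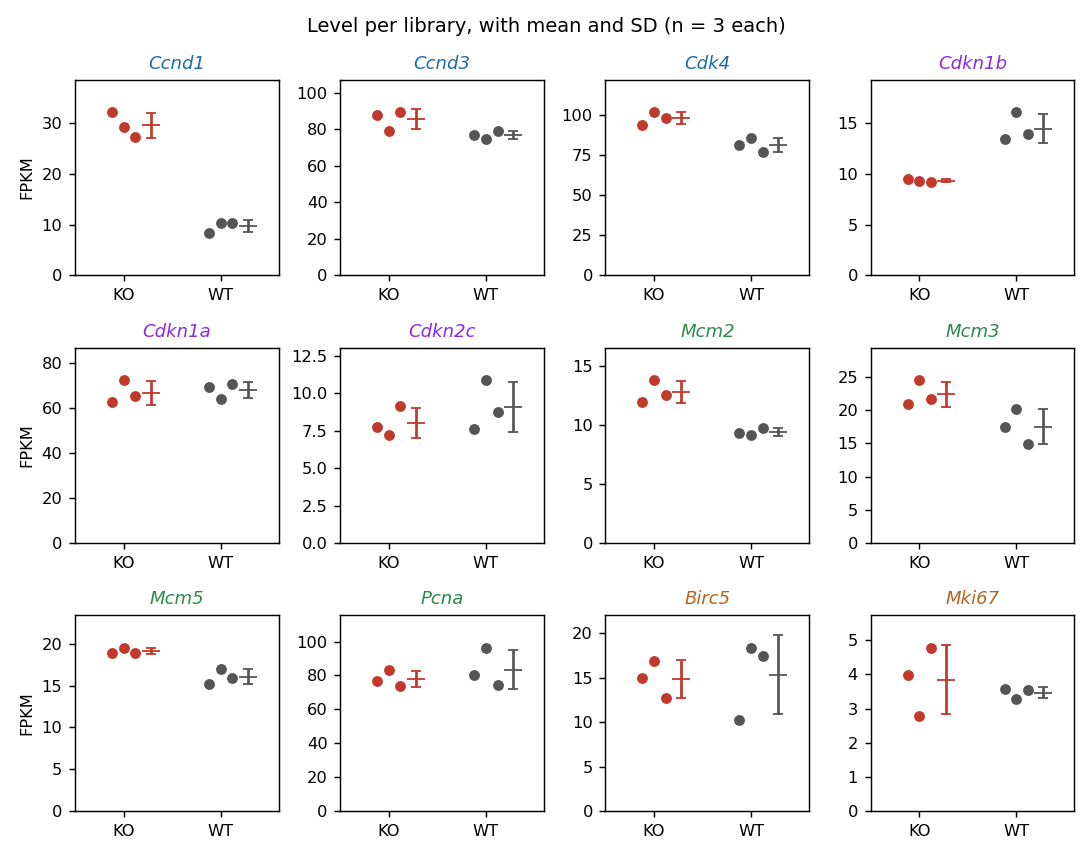
FPKM (y axes, starting at 0) of 12 of the genes in each library, KO to the left of WT, with the mean and SD of each group (n = 3 each). Ccnd1 (29.6 in KO, 9.74 in WT), Cdkn1b (9.34 in KO, 14.4 in WT) and Mcm2 (12.7 in KO, 9.39 in WT) are separated. Ccnd3, Cdk4, Mcm3 and Mcm5 are separated too, while Cdkn1a, Cdkn2c, Pcna, Birc5 and Mki67 overlap.

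In the replication group, the 6 subunits of the MCM helicase that unwinds DNA all had positive log2 fold changes, but Mcm2 alone was called. Mcm2, on chromosome 6 at 88883474 to 88898780, had an FPKM of 11.9, 13.8 and 12.5 in KO libraries 1 to 3, against 9.33, 9.12 and 9.74 in WT libraries 1 to 3. All KO libraries lay above all WT libraries. The log2 fold change was 0.42 ± 0.11 SE (1.34-fold, 95% interval 0.18 to 0.66, edgeR adjusted p = 0.0237), and 0.37 without KO library 2 and WT library 3 (adjusted p = 0.0137). The call was lost when KO library 3 (adjusted p = 0.0536), WT library 1 (adjusted p = 0.0900) or WT library 2 (adjusted p = 0.0736) was left out. Mcm2 made up 13.7, 15.4 and 14.6% of the summed FPKM of the helicase subunits in KO libraries, against 13.5, 11.8 and 13.8% in WT libraries, which overlap.

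The other helicase subunits lay between 0.11 and 0.33. Mcm3 had an FPKM of 21.0, 24.5 and 21.6 in KO libraries, against 17.4, 20.2 and 15.0 in WT libraries, and its log2 fold change was 0.33 (edgeR adjusted p = 0.106). Mcm5 had an FPKM of 18.9, 19.5 and 18.9 in KO libraries, against 15.2, 17.0 and 15.9 in WT libraries, and its log2 fold change was 0.23 (adjusted p = 0.144). Both were separated between the groups without passing the test, and Mcm3 passed with a gene length trend removed (adjusted p = 0.0495). Mcm6 (0.25), Mcm4 (0.13) and Mcm7 (0.11) had adjusted p-values of 0.244 to 0.584, and Mcm4 passed without KO library 2 and WT library 3 (0.35, adjusted p = 0.0315). Mcm7 shares 32.7% of its 32-base words with other genes, mostly Gm5487, so its counts are uncertain. Summed over the helicase subunits, the FPKM was 86.9, 89.3 and 85.8 in KO libraries, against 68.9, 77.5 and 70.4 in WT libraries, which do not overlap.

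The other 6 replication genes were not called. Pcna, the sliding clamp of DNA polymerases and the most abundant replication gene here, had an FPKM of 76.8, 83.1 and 73.9 in KO libraries, against 80.04, 96.2 and 74.1 in WT libraries. The groups overlapped, at a log2 fold change of -0.12 (95% interval -0.37 to 0.14, edgeR adjusted p = 0.566), and 23.0% of its words are shared, mostly with Pcna-ps2. For the makers of DNA precursors, the log2 fold changes were -0.22 for the ribonucleotide reductase subunit Rrm1, 0.017 for Rrm2 and 0.40 for thymidylate synthase (Tyms). Rrm1 passed without KO library 2 and WT library 3 (-0.45, adjusted p = 0.00445), and Tyms without WT library 2 (0.72, adjusted p = 0.0318). Rrm2 and Tyms share 12.15 and 10.94% of their words with other genes. The loaders that place the helicase on DNA had values of 0.078 (Cdc6) and -0.0054 (Cdt1), with adjusted p-values of 0.816 and 0.985.

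None of the mitotic transcripts was called. Their summed FPKM was 84.0 to 89.3 in KO and 73.5 to 97.3 in WT libraries. The 13 log2 fold changes ran from -0.19 to 0.22, with 95% intervals from -0.52 to 0.51 across the group and adjusted p-values of 0.330 or above in edgeR. Limma and DESeq2 called none of them either, and a difference inside a gene's own interval is not excluded. Birc5, which encodes survivin of the chromosomal passenger complex and was the most abundant of them, had an FPKM of 15.0, 16.9 and 12.7 in KO libraries, against 10.2, 18.4 and 17.5 in WT libraries. WT library 1 lay far below the other WT libraries and below every KO library, and the log2 fold change was -0.068 (95% interval -0.52 to 0.38, adjusted p = 0.876).

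The proliferation marker Mki67 had an FPKM of 3.98, 2.77 and 4.78 in KO libraries, against 3.57, 3.28 and 3.54 in WT libraries. KO library 2 was the lowest and KO library 3 the highest of all, and the log2 fold change was 0.12 (edgeR adjusted p = 0.677), or 0.31 without KO library 2 and WT library 3 (adjusted p = 0.0481). Top2a, the topoisomerase that untangles sister chromatids, had an FPKM of 7.71, 7.503 and 7.66 in KO libraries, against 7.16, 8.25 and 7.20 in WT libraries, with a log2 fold change of -0.0052. The kinase Cdk1, which drives entry into mitosis, had an FPKM of 6.18, 7.71 and 6.91 in KO libraries, against 6.52, 8.62 and 5.25 in WT libraries, with a log2 fold change of 0.0099. For each of these genes the libraries of the groups overlapped.

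The cyclins of G2 and mitosis had log2 fold changes of -0.19 (Ccna2), 0.00035 (Ccnb1) and 0.013 (Ccnb2). The mitotic kinases Plk1 (0.059), Aurka (0.075), Aurkb (-0.064) and the checkpoint kinase Bub1 (-0.12) lay close to 0 as well. Cdc20, the activator of the anaphase-promoting complex, was the furthest above 0 at 0.22, and Foxm1, the factor that switches on mitotic genes, stood at -0.059. Of these, Ccnb1, Cdc20 and Plk1 share 27.5, 25.5 and 18.1% of their words with other genes, among them processed copies. Their counts are uncertain to that extent. Ccna2 shares 12.5% of its exon bases with Exosc9 on the opposite strand, which had a log2 fold change of 0.14.

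Single libraries ordered many of these genes alike. WT library 2 was the highest WT library for 24 of the 39 genes, including 9 of 13 mitotic and 8 of 12 replication genes. KO library 2 was the lowest KO library for 20 of the 39, including 9 of 13 mitotic genes. The same counts were not made over all tested genes, so whether this order is particular to the 39 was not tested. The median coefficient of variation over mitotic genes was 13.9% in KO and 13.2% in WT libraries, and over replication genes it was 8.73% in KO and 14.1% in WT libraries.

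**Figure D4:**
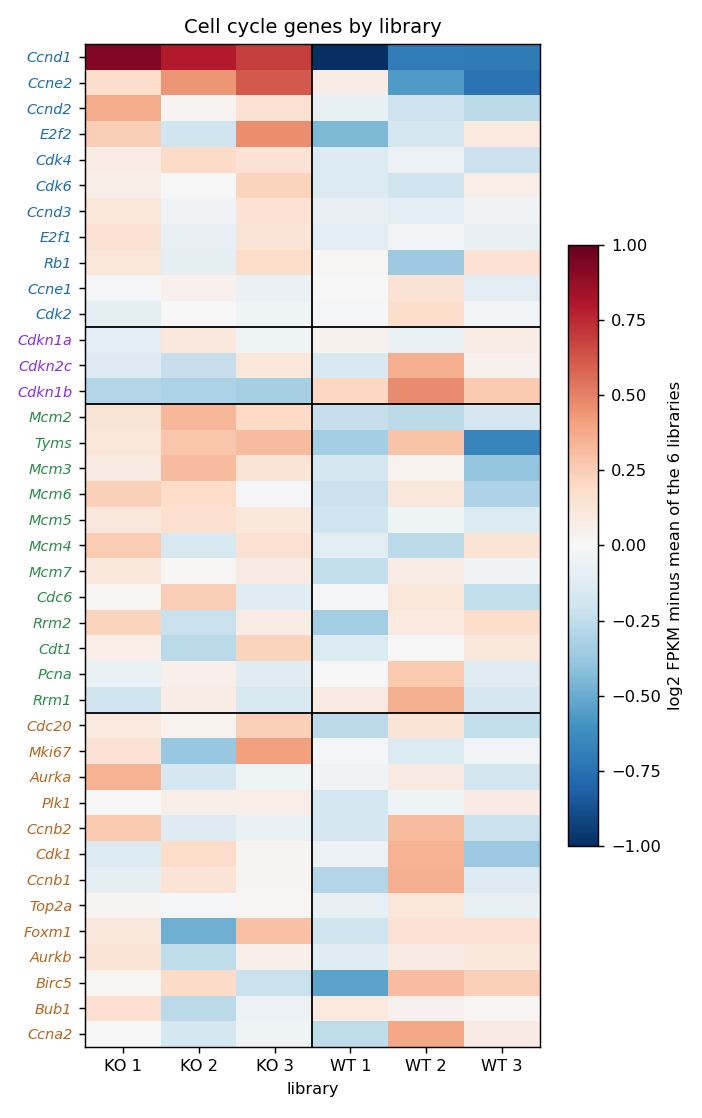
Log2 FPKM of each of the 39 genes (rows, by role) in each library (columns, KO to the left of WT), as the difference from the mean of the 6 libraries, red for higher and blue for lower, with the scale ending at 1 and -1. Ccnd1 and Cdkn1b divide the libraries by genotype, as do Ccnd2, Ccnd3, Ccne2, Cdk4, Mcm2, Mcm3 and Mcm5. Among WT libraries, 9 of 13 mitotic rows are highest in WT library 2.

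Other genes of the same pathways, listed by function, were counted in the same fit. Of 56 other replication genes, 1 rose, 0 fell and 55 were not called, at a median log2 fold change of -0.013, and 10 had an unadjusted p under 0.05, fewer than the 28.2% of all tested genes. The gene that rose was Pold2, a subunit of DNA polymerase delta, at 13.6, 17.4 and 15.7 FPKM in KO libraries and 10.5, 11.4 and 12.02 FPKM in WT libraries (log2 fold change 0.44, edgeR adjusted p = 0.0419). Of 72 other mitotic genes, 2 rose and 0 fell, at a median of -0.040, and 10 had an unadjusted p under 0.05, again a smaller share than over all tested genes. The 2 that rose were Ube2s, the ubiquitin-conjugating enzyme that works with the anaphase-promoting complex (0.66, adjusted p = 0.00256), and Anln, the actin-binding anillin of cytokinesis (0.70, adjusted p = 0.00968). Ube2s shares 3.56% of its exon bases with Rpl28 on the opposite strand. Both lists lay under the 14.6% of all tested genes, at 1.79 and 2.78% called.

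Among other genes listed with G1 and E2F, a list not limited to drivers of G1, calls fell in both directions. Of these 24 genes, 2 rose and 3 fell, which is 20.8% beside 14.6% of all tested genes. Myc, the growth-promoting transcription factor, had an FPKM of 6.95, 5.95 and 5.76 in KO libraries, against 2.28, 2.20 and 3.44 in WT libraries (log2 fold change 1.21, edgeR adjusted p = 0.00126). All KO libraries were above all WT libraries. Mybl2, a partner of MuvB, rose (0.77, adjusted p = 0.00984), but 21.0% of its words are shared with other genes. Myb, the progenitor factor (-1.60, adjusted p = 0.00993), cyclin L1 (Ccnl1, -0.60, adjusted p = 0.0129) and cyclin G2 (Ccng2, -0.48, adjusted p = 0.0304) fell. Myb was low, at 0.14, 0.16 and 0.33 FPKM in KO libraries and 0.58, 0.65 and 0.64 FPKM in WT libraries.

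Beside Myb, other markers of progenitors and granulocyte precursors moved with genotype. Of 9 tested stem and progenitor markers, 2 were called higher (Cd34 and Sox4) and 2 lower (Myb and Cebpe). That is 44.4%, beside 14.6% of all tested genes. The summed FPKM of these markers was 8.84 to 11.997 in KO and 11.1 to 13.0 in WT libraries. Of 11 neutrophil and granulocyte precursor markers, 2 were called higher (S100a8 and S100a9) and 4 lower (Elane, Mpo, Prtn3 and Ctsg), which is 54.5%. The summed FPKM of these 11 was 1730 to 2146 in KO and 1400 to 1991 in WT libraries. Most of it came from S100a8 and S100a9, so the sum does not show the 4 called lower. The part of such cells in the cell cycle values was not tested.

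Of the 5 lists, that of other inhibitors and repressors had the highest share of calls, 7 of 20 or 35%. Of these 7, 2 were higher and 5 lower, and 14.6% of all tested genes were called. The neighbouring inhibitor genes Cdkn2a, which encodes p16 and p19ARF, and Cdkn2b, which encodes p15, rose. The FPKM of Cdkn2a was 3.998, 5.20 and 4.72 in KO libraries, against 1.37, 2.35 and 1.23 in WT libraries (log2 fold change 1.47, edgeR adjusted p = 0.00326). The FPKM of Cdkn2b was 1.81, 2.12 and 1.89 in KO libraries, against 0.52, 0.72 and 0.81 in WT libraries (1.48, adjusted p = 0.00435). For both, every KO library lay above every WT library. The antiproliferative genes Btg1 (-0.57, adjusted p = 0.00737) and Btg2 (-0.47, adjusted p = 0.00996) fell, as did the pocket protein gene Rbl2 (-0.40), the repressive factor E2f5 (-0.58) and the Myc antagonist Mxi1 (-0.45). The inhibitors thus did not move as 1 group, with Cdkn1b lower, Cdkn2a and Cdkn2b higher, and Cdkn1a and Cdkn2c not called.

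Of 28 p53 pathway genes, a list without Cdkn1a, 3 rose and 4 fell, which is 25% beside 14.6% of all tested genes, at a median log2 fold change of -0.098. The stress kinases Plk2 (-0.88, edgeR adjusted p = 7.6e-04) and Plk3 (0.80, adjusted p = 0.00182) went in opposite directions, and so did the death genes Bbc3 (-0.74, adjusted p = 0.00426) and Tnfrsf10b (1.44, adjusted p = 0.00105). In the authors' own pathway column, 119 tested genes carry the cell cycle term, of which 6 rose and 4 fell (8.4%). Of 35 tested genes with the DNA replication term, 2 rose, Mcm2 and Pold2, and 0 fell.

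**Figure D5:**
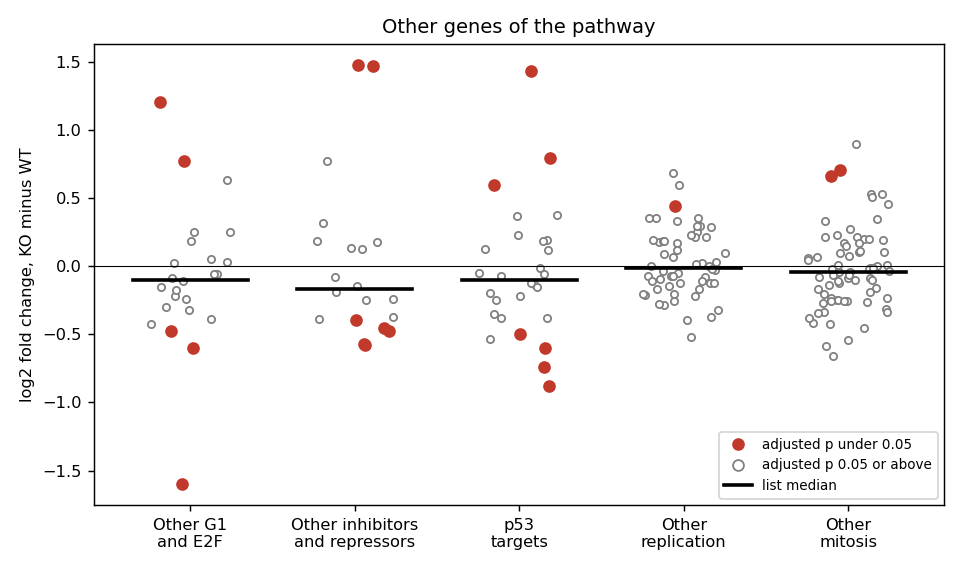
Log2 fold change (y axis, KO minus WT) of the genes in 5 lists that exclude the 39, filled for an adjusted p under 0.05 in edgeR, with a bar at each list's median. The replication and mitosis lists hold 1 and 2 filled points of 56 and 72, and the G1, inhibitor and p53 lists hold 5, 7 and 7 of 24, 20 and 28.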

How the data were processed

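RNA of 6 macrophage libraries was sequenced with a strand-specific kit, per the labels' protocols. The authors deposited raw read counts per gene, with no normalization, and FPKM values. FPKM equals the count divided by a single gene length and by the column total, to 1% or better in 99.99% of values that rest on 10 or more counts. Tools named in the submitters' processing notes are fastp, HISAT2 and HTSeq, on mm10, without versions, and whether counting used strand is not stated there. Titles gave the group and number of each library.

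KO was compared with WT over all 6 libraries on the deposited counts by the quasi-likelihood F test of edgeR 4.0.16 (R 4.3.3), after filterByExpr and with TMM scaling. Benjamini-Hochberg adjustment was over 12219 genes, and called means an adjusted p under 0.05. Each SE is the absolute log2 fold change over the root of its F statistic. The step was tested on simulated data first. Levels are the deposited FPKM. Alternatives were RLE, upper-quartile and total-count scaling, 2 other filters, DESeq2 1.42.0, limma-voom and limma-trend on log2 FPKM in limma 3.58.1 with pseudocounts of 1 and 0.1, a replicate block, removal of a gene length trend, leaving out each library, and leaving out KO library 2 with WT library 3.

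The genes, lists and alternatives were chosen with earlier results of these data known. Per library values are given for called genes, the most abundant gene of each role, the inhibitors and genes whose ranges stood apart. Up to 4 called genes of each pathway list are named by smallest adjusted p, and the other called genes of the G1 and inhibitor lists were named after their values were seen, as were Mki67, Top2a, Cdk1 and Cdk4's partners. Shared words and exon overlaps came from GENCODE M21 on GRCm38, the assembly of mm10, and promoters and gene positions from RefSeq on GRCm38.p6.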

Additional observations from a re-analysis of the deposited data

How the results depend on the processing

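No called gene of the 39 changed direction under the alternatives run, while uncalled values near 0 did, and the mitotic median was -0.062 to 0.088 with 1 library left out. Of the single-gene results under alternatives, 728 kept their side of the threshold and 12 changed it. Without KO library 2 and WT library 3, which leaves 2 libraries a group, 5 genes of the 39 were called higher and 2 lower, against 2 and 1 with all libraries. Over all tested genes that setting called 1681 higher and 1505 lower, against 1031 and 759. The remaining groups then differ on the second principal component too, so it cannot be told apart from genotype. The median log2 fold change of the G1 and E2F genes was 0.27 there, against 0.15. Leaving out 1 library at a time gave 1 to 2 of the 39 called higher, and 1 lower each time. All tested genes called lower then numbered 359 to 742. The G1 and E2F median was 0.12 to 0.23 and the inhibitor median -0.31 to -0.080. The cause of these changes was not tested. With the replicate block, 1362 genes were called higher and 1164 lower, and 3 of the 39 were called higher, since Mcm3 passed (adjusted p = 0.0182). Same-numbered libraries deviated together at r = -0.098, 0.23 and 0.18. KO library 1 correlated best with WT library 3 (0.26), and KO libraries 2 and 3 with the WT library of the same number. Deviations from a mean of 3 libraries depend on each other, so these values cannot decide whether same-numbered libraries were paired. The labels do not say. Ccne2 passed with limma-trend on log2(FPKM + 1) (adjusted p = 0.0478). Depth was lowest for Ccne2, at a mean of 0.80 FPKM. It rested on 94, 119 and 118 counts in KO libraries and 86, 63 and 58 in WT libraries.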

Other observations

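Genes of the replication-dependent histones, whose transcripts rise in S phase and mostly lack a poly(A) tail, a set that leaves out variants such as H2A.Z, were looked at after the values above were seen. Of 55 such symbols, 50 had a mean FPKM under 1, the median was 0.097 FPKM, and 7 passed the filter on low counts. The most abundant was H1f2, at 20.9, 25.6 and 18.5 FPKM in KO libraries and 24.9, 26.8 and 25.1 FPKM in WT libraries (log2 fold change -0.26, edgeR adjusted p = 0.264). Next came H2bc4, at 15.3, 19.0 and 15.4 FPKM in KO libraries and 18.4, 13.4 and 12.9 FPKM in WT libraries (0.14, adjusted p = 0.649). Both overlapped between the groups, as did H4c9. H2ac18 lay above WT in every KO library (0.33, edgeR adjusted p = 0.513), and H2bc21 lay below WT in every KO library (-0.54, adjusted p = 0.1105). Of the 7 tested, 0 were called.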
